A study of Mus musculus with 8 samples.

Results

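The genes described here are 10 genes of lung endothelial cells, the cells that line blood vessels: *Pecam1*, *Cdh5*, *Kdr*, *Car4*, *Ednrb*, *Apln*, *Gpihbp1*, *Aplnr*, *Plvap* and *Vwf*. They were chosen by name, as known endothelial markers, from a table of 25965 genes, and all 10 passed the filter on low values that 15627 genes passed. RNA of whole mouse lung was sequenced in 2 libraries from each of 4 groups, 8 libraries in all. The groups were *Wfdc2*+/+ mice at E18.5, shortly before birth, *Wfdc2*GFP/GFP mice at E18.5, *Wfdc2*+/+ mice at P1.5, after birth, and *Wfdc2*GFP/GFP mice at P1.5. *Wfdc2*+/+ mice carry both normal alleles and were littermate controls, and *Wfdc2*GFP/GFP mice carry on both alleles an IRES-EGFP cassette that takes the place of the start of *Wfdc2*, a protease inhibitor gene of airway epithelium. The knock-in line was made from TT2 embryonic stem cells and its drug resistance gene was removed by crossing with CAG-Cre mice. In whole lung, fewer endothelial cells and less RNA per endothelial cell cannot be told apart.

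Endothelial cells form the inner wall of every vessel, and in the lung they make up the dense capillary bed across which gas is exchanged. PECAM1 and VE-cadherin, encoded by *Cdh5*, hold neighbouring cells together, and *Kdr* encodes VEGFR2, the main receptor for VEGF-A. Single-cell studies divide alveolar capillaries into aerocytes, thin cells next to the air space that carry *Car4*, *Ednrb* and *Apln*, and general capillary cells, which carry *Gpihbp1*, *Aplnr* and *Plvap* and can act as their progenitors. *Vwf* encodes von Willebrand factor, stored in endothelium of larger vessels and also made by megakaryocytes.

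The RefSeq promoter table (GRCm38.p6) held 4 of the 10 genes. Of these, the windows of *Kdr*, *Car4* and *Apln* are shown because the results turn on them: *Kdr* was lower and *Car4* higher after birth in both genotypes, and *Apln* differed most between replicates of a group after *Car4*. The window of *Ednrb* lies inside the gene span used in the table and is not shown. Each window holds the 250 bases before the start of transcription, on chr5:75978456-75978705 (minus strand) for *Kdr*, chr11:84957504-84957753 (plus strand) for *Car4* and chrX:48034854-48035103 (minus strand) for *Apln*. Capitals mark GGAA and its reverse complement TTCC, the core bound by ETS factors, a family that includes the endothelial factors ERG and FLI1.
Kdr: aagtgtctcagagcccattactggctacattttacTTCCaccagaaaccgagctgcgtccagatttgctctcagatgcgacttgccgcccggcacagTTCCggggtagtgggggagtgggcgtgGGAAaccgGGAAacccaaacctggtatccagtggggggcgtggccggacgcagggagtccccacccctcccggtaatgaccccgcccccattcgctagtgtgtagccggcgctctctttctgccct
Car4: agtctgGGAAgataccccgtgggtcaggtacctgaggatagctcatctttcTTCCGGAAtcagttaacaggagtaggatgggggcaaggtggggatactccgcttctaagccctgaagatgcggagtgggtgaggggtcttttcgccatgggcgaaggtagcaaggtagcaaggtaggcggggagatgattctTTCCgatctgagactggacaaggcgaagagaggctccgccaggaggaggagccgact
Apln: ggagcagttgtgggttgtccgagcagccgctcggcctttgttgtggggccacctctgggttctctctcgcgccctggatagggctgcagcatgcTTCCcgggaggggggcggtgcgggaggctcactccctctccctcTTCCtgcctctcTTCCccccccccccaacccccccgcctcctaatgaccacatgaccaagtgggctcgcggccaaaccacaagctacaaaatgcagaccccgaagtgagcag
The core occurred 4 times in the *Kdr* window, 4 times in the *Car4* window and 3 times in the *Apln* window, and 93.4% of 32851 promoter windows of the same length held at least 1. ACGTG or its reverse complement CACGT, the core of the hypoxia response element, was in none of the 3 windows and in 16.6% of all windows.

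Read totals recovered from the deposited values were 19457647 to 37209334 per library. The highest, that of replicate 1 of *Wfdc2*GFP/GFP E18.5, exceeds the raw read counts that the paper lists for that group. With these totals, 3 reads, taken as the detection limit, correspond to 0.0806 to 0.154 RPM, that is, the reads of a gene scaled by the library total. *Wfdc2* had 8038 to 32845 reads in *Wfdc2*+/+ libraries and 0 to 12 in *Wfdc2*GFP/GFP libraries. *Sftpc*, the surfactant protein gene of alveolar type II cells, took more reads than any other gene in 7 of the 8 libraries. *Xist*, expressed by female cells, marked replicate 1 of every group (4121 reads or more, against 13 or fewer in replicate 2), so replicate number and sex cannot be told apart. In 2 groups the replicates stood apart. Replicate 1 of each is called below a library that stood apart, which is a label and not a finding about that library. With 2 libraries a group, a gap does not show which of them is unusual. In *Wfdc2*+/+ P1.5, 38.9% of tested genes differed by more than 1 log2 unit between replicates. Replicate 1 had lower summed levels of mesenchyme and pericyte genes (994 against 4483 RPM) and of proliferation genes (82.7 against 362 RPM), and a higher sum of epithelial genes (66323 against 30960 RPM). The *Wfdc2*GFP/GFP P1.5 libraries lay nearer to replicate 1 in each of these sums, at 1718 and 2398, 118 and 201, and 70419 and 52279 RPM. The *Wfdc2*+/+ E18.5 libraries lay nearer to replicate 2, at 3064 and 3459, 601 and 388, and 16672 and 19461 RPM. In *Wfdc2*GFP/GFP E18.5 the share was 24.2%, and replicate 1 had less of the epithelial genes (8252 against 20988 RPM) and leukocyte genes (141 against 473 RPM) and more of the proliferation genes (1332 against 436 RPM). The share was 3.86% in *Wfdc2*+/+ E18.5 and 12.9% in *Wfdc2*GFP/GFP P1.5.

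**Figure D1:**
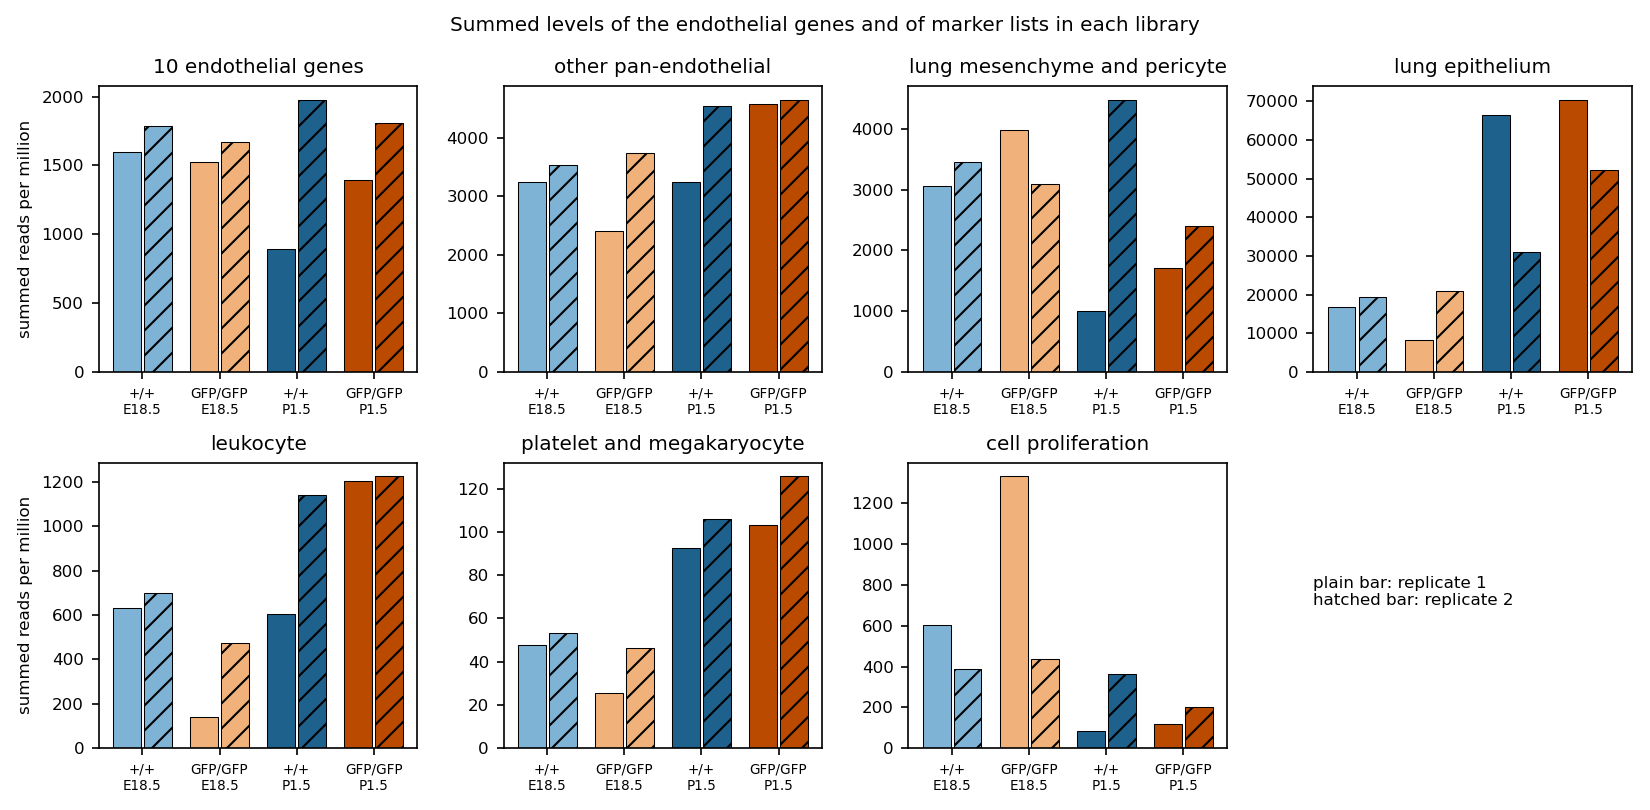
Summed RPM (vertical axes, from 0) of the 10 endothelial genes and of 6 marker lists in each library, with groups along the horizontal axis, plain bars for replicate 1 and hatched bars for replicate 2. Replicate 1 of *Wfdc2*+/+ P1.5 has the lowest sum of the 10 endothelial genes (896 RPM) and of mesenchyme and pericyte genes (994 RPM).

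Summed over the 10 genes, the level was 1596 and 1790 RPM in *Wfdc2*+/+ E18.5, 1524 and 1669 RPM in *Wfdc2*GFP/GFP E18.5, 896 and 1979 RPM in *Wfdc2*+/+ P1.5 and 1393 and 1810 RPM in *Wfdc2*GFP/GFP P1.5, replicate 1 first. The lowest and the highest sums thus came from the same group. All 10 genes were detected in every library, with the lowest count, 156 reads, for *Apln* in replicate 1 of *Wfdc2*+/+ P1.5 and the highest, 16795 reads, for *Cdh5* in replicate 2 of *Wfdc2*+/+ E18.5. Since the deposited RPKM divide by the whole gene span with introns, levels were compared between genes per kilobase of exon. On the log2 scale of RPM per kilobase of exon, averaged over the 8 libraries, *Cdh5* (6.23), *Pecam1* (6.0), *Plvap* (5.96) and *Gpihbp1* (5.80) were highest. *Car4* (4.81), *Ednrb* (4.73), *Aplnr* (4.65) and *Kdr* (4.21) followed, then *Apln* (3.30) and *Vwf* (1.97). The largest gap between replicates of a group was 0.91 for *Pecam1*, 2.36 for *Cdh5* and 3.11 for *Car4*, which is more than separates neighbours within the first 4 or within the next 4 genes.

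**Figure D2:**
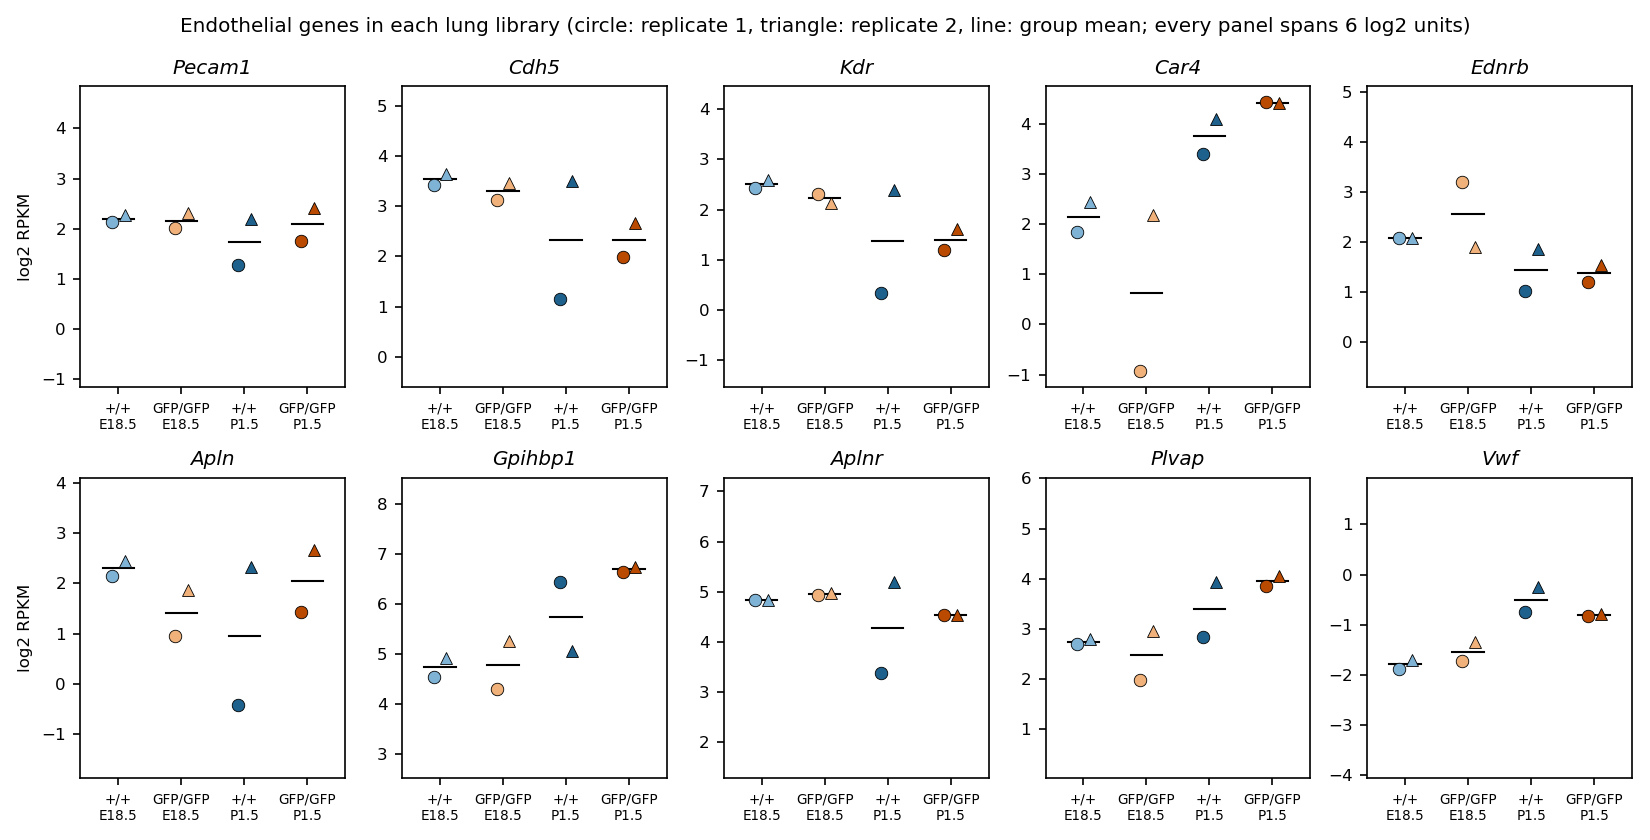
Log2 RPKM (vertical axes, each spanning 6 log2 units) of each gene in each library, with circles for replicate 1, triangles for replicate 2, a line for the group mean and groups along the horizontal axis. *Car4*, *Gpihbp1*, *Plvap* and *Vwf* lie higher at P1.5 than at E18.5 within each genotype. Replicate 1 of *Wfdc2*+/+ P1.5 lies below its replicate for 9 of the 10 genes and for 77.3% of all tested genes. In the other groups replicate 1 lies lower for 8 or 9 of the 10, against 51.1% to 63.5% of tested genes.

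The junction genes of general endothelium varied little before birth. *Pecam1* was at 2.14 and 2.27 log2 RPKM in *Wfdc2*+/+ E18.5, 2.01 and 2.31 in *Wfdc2*GFP/GFP E18.5, 1.28 and 2.19 in *Wfdc2*+/+ P1.5 and 1.76 and 2.41 in *Wfdc2*GFP/GFP P1.5. Its groups overlapped in every comparison. *Cdh5* was at 3.42 and 3.65 log2 RPKM in *Wfdc2*+/+ E18.5, 3.13 and 3.46 in *Wfdc2*GFP/GFP E18.5, 1.15 and 3.51 in *Wfdc2*+/+ P1.5 and 1.99 and 2.66 in *Wfdc2*GFP/GFP P1.5. Both *Wfdc2*GFP/GFP P1.5 libraries lay below both libraries of that genotype at E18.5, whereas the *Wfdc2*+/+ P1.5 replicates lay 2.36 log2 units apart. An antisense transcript, Gm29682, overlaps *Cdh5* in GENCODE, and it is not stated whether reads were counted by strand.

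*Kdr*, the VEGF receptor gene, was at 2.44 and 2.59 log2 RPKM in *Wfdc2*+/+ E18.5, 2.32 and 2.12 in *Wfdc2*GFP/GFP E18.5, 0.34 and 2.39 in *Wfdc2*+/+ P1.5 and 1.18 and 1.61 in *Wfdc2*GFP/GFP P1.5. It was lower in both P1.5 libraries than in both E18.5 libraries of each genotype, although replicate 2 of *Wfdc2*+/+ P1.5 lay just under the E18.5 libraries of its genotype. *Kdr* followed *Cdh5* closely across libraries. After centring each gene on its mean over the 8 libraries, their root mean square difference was 0.17 log2 units. That was the smallest of any pair among the 10 genes, where the largest was 2.25, for *Car4* and *Ednrb*.

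Among the aerocyte genes, *Car4*, a membrane carbonic anhydrase on the capillary surface, had the widest range. It was at 1.85 and 2.45 log2 RPKM in *Wfdc2*+/+ E18.5, −0.92 and 2.18 in *Wfdc2*GFP/GFP E18.5, 3.40 and 4.10 in *Wfdc2*+/+ P1.5 and 4.43 and 4.42 in *Wfdc2*GFP/GFP P1.5. All 4 P1.5 libraries were above all 4 E18.5 libraries, and the low value at E18.5 (162 reads) came from replicate 1 of *Wfdc2*GFP/GFP, which stood apart in its epithelial, leukocyte and proliferation genes. *Ednrb*, the endothelin B receptor, ran the other way: 2.08 and 2.08 log2 RPKM in *Wfdc2*+/+ E18.5, 3.20 and 1.91 in *Wfdc2*GFP/GFP E18.5, 1.02 and 1.85 in *Wfdc2*+/+ P1.5 and 1.21 and 1.55 in *Wfdc2*GFP/GFP P1.5. All 4 P1.5 libraries were below all 4 E18.5 libraries, and the highest value came from the library that was lowest for *Car4*. *Apln*, which encodes the ligand of the *Aplnr* receptor, was at 2.15 and 2.45 log2 RPKM in *Wfdc2*+/+ E18.5, 0.95 and 1.86 in *Wfdc2*GFP/GFP E18.5, −0.43 and 2.33 in *Wfdc2*+/+ P1.5 and 1.42 and 2.66 in *Wfdc2*GFP/GFP P1.5. It did not separate the stages in either genotype.

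Among the general capillary genes, *Gpihbp1*, which carries lipoprotein lipase to the capillary lumen, was at 4.54 and 4.92 log2 RPKM in *Wfdc2*+/+ E18.5, 4.30 and 5.26 in *Wfdc2*GFP/GFP E18.5, 6.43 and 5.06 in *Wfdc2*+/+ P1.5 and 6.64 and 6.74 in *Wfdc2*GFP/GFP P1.5. It was the only one of the 10 genes that was higher in replicate 1 of *Wfdc2*+/+ P1.5 than in replicate 2. *Plvap*, the diaphragm protein of fenestrae and caveolae, was at 2.71 and 2.79 log2 RPKM in *Wfdc2*+/+ E18.5, 1.99 and 2.95 in *Wfdc2*GFP/GFP E18.5, 2.85 and 3.93 in *Wfdc2*+/+ P1.5 and 3.85 and 4.05 in *Wfdc2*GFP/GFP P1.5. Both genes were higher after birth than before within each genotype. *Plvap* overlaps *Gtpbp3* on the opposite strand, so reads of the shared stretch may belong to either. *Aplnr*, the apelin receptor, was at 4.84 and 4.84 log2 RPKM in *Wfdc2*+/+ E18.5, 4.93 and 4.97 in *Wfdc2*GFP/GFP E18.5, 3.37 and 5.19 in *Wfdc2*+/+ P1.5 and 4.54 and 4.54 in *Wfdc2*GFP/GFP P1.5. Replicates agreed to within 0.05 log2 units for *Aplnr* in every group but *Wfdc2*+/+ P1.5.

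*Vwf* had the tightest replicates, at most 0.50 log2 units apart. It was at −1.88 and −1.70 log2 RPKM in *Wfdc2*+/+ E18.5, −1.72 and −1.35 in *Wfdc2*GFP/GFP E18.5, −0.76 and −0.25 in *Wfdc2*+/+ P1.5 and −0.82 and −0.78 in *Wfdc2*GFP/GFP P1.5. All 4 P1.5 libraries were above all 4 E18.5 libraries. The sum of 8 platelet and megakaryocyte genes moved the same way, from 25.7 to 53.2 RPM at E18.5 to 92.6 to 126 RPM at P1.5, and its part in the *Vwf* values was not tested.

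To ask how the endothelial genes differed across birth, P1.5 was compared with E18.5 within each genotype. In both genotypes *Car4*, *Gpihbp1*, *Plvap* and *Vwf* were higher in both P1.5 libraries than in both E18.5 libraries, 4 of 10 genes against 11.1% of all tested genes, and *Kdr* and *Ednrb* were lower, 2 of 10 against 20.7%. These comparisons share no library. Taken singly, 27.4% of tested genes did not overlap as higher and 28.2% as lower in *Wfdc2*+/+ lung, where 4 and 2 of the 10 did, and 18.7% and 48.5% in *Wfdc2*GFP/GFP lung, where 4 and 4 did, *Cdh5* and *Aplnr* being the further lower genes. In *Wfdc2*+/+ lung the fitted log2 change was 1.60 for *Car4* (3.03-fold), 1.29 for *Vwf* (2.44-fold), 1.01 for *Gpihbp1* (2.02-fold) and 0.64 for *Plvap* (1.56-fold), and −1.15 for *Kdr*, −1.21 for *Cdh5* and −0.64 for *Ednrb*. In *Wfdc2*GFP/GFP lung it was 3.80 for *Car4* (13.9-fold), 1.92 for *Gpihbp1* (3.77-fold), 1.48 for *Plvap* (2.79-fold) and 0.73 for *Vwf* (1.66-fold), and −0.82 for *Kdr*, −0.97 for *Cdh5* and −1.18 for *Ednrb*. *Pecam1* (−0.46 and −0.08) and *Aplnr* (−0.56 and −0.41) were nearer to 0.

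**Figure D3:**
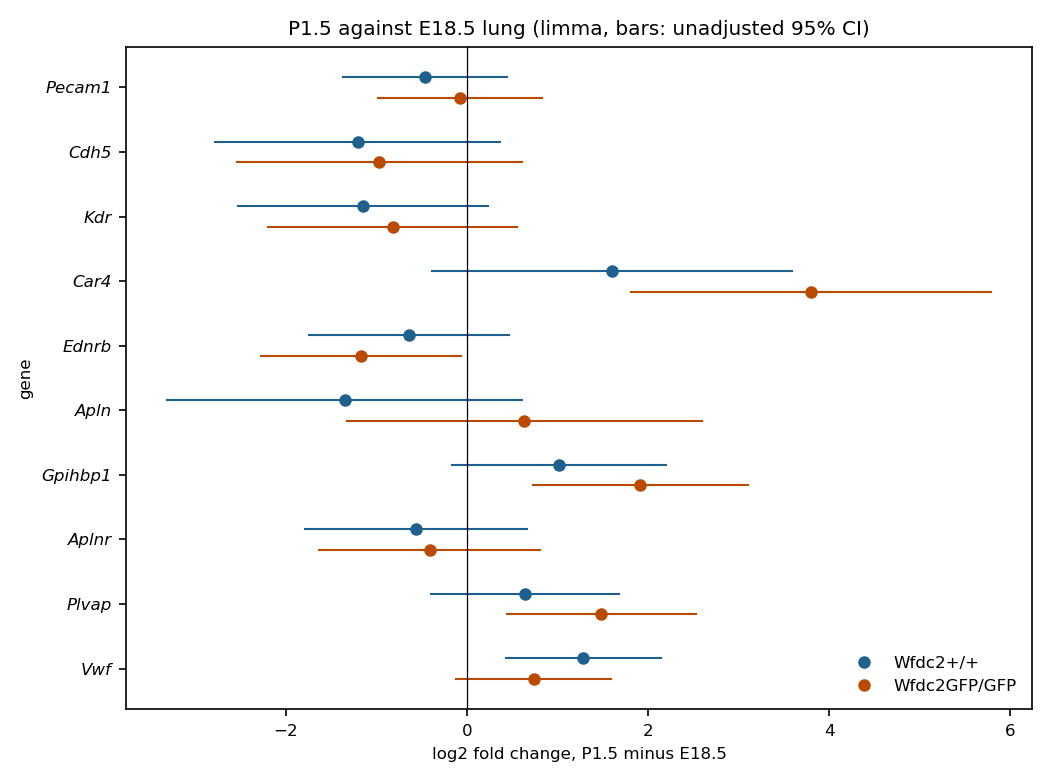
Fitted log2 fold change of P1.5 against E18.5 (horizontal axis) for each gene (vertical axis) in *Wfdc2*+/+ and *Wfdc2*GFP/GFP lung, with bars for the unadjusted 95% confidence interval. *Car4*, *Gpihbp1*, *Plvap* and *Vwf* lie to the right of 0 in both genotypes, and *Apln* lies at −1.35 and 0.63.

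None of the 10 genes passed an adjusted p of 0.05 in limma in either genotype on its own. In *Wfdc2*+/+ lung the smallest adjusted p was 0.280, for *Vwf* (SE 0.37, unadjusted p = 0.00889), and the others lay between 0.447 and 0.566, where 0.0256% of tested genes passed as higher and 0.032% as lower. At an unadjusted p under 0.05, *Vwf* alone passed there, against 6.9% of tested genes higher and 4.93% lower. In *Wfdc2*GFP/GFP lung *Car4* came to an adjusted p of 0.0503 (SE 0.86), *Gpihbp1* to 0.0608 (SE 0.51) and *Plvap* to 0.0738 (SE 0.45) by limma, where 1.61% of tested genes passed as higher and 2.94% as lower. At an unadjusted p under 0.05, these 3 genes were higher and *Ednrb* lower, against 9.61% of tested genes higher and 26% lower. With each library centred on its median, *Car4* (adjusted p = 0.0398), *Plvap* (0.0366) and *Vwf* (0.0448) passed in limma, where 1279 of the 15627 tested genes passed. Centring raised the median change of all tested genes from −0.46 to 0.21, and with it every gene here, so that *Pecam1* went from −0.08 to 0.60 and *Aplnr* from −0.41 to 0.26 in *Wfdc2*GFP/GFP lung. Without replicate 1 of *Wfdc2*GFP/GFP E18.5, the log2 change of *Car4* in *Wfdc2*GFP/GFP lung was 2.24 in place of 3.80 (limma adjusted p = 0.182), and no tested gene passed in limma, with 2482 at an unadjusted p under 0.05 in place of 5560, and without replicate 1 of *Wfdc2*+/+ P1.5, those of *Kdr*, *Cdh5* and *Gpihbp1* in *Wfdc2*+/+ lung were −0.12, −0.03 and 0.33 in place of −1.15, −1.21 and 1.01. Without replicate 2 of *Wfdc2*+/+ P1.5, the changes of *Kdr*, *Cdh5* and *Gpihbp1* in *Wfdc2*+/+ lung were −2.18, −2.39 and 1.70. That of *Plvap* was 0.10 in place of 0.64. With a term for replicate number, which coincided with sex, *Car4* (adjusted p = 0.00968), *Gpihbp1* (0.0201), *Plvap* (0.0240) and *Ednrb* (0.0497) passed in limma in *Wfdc2*GFP/GFP lung. There 4160 of the 15627 tested genes passed. None of the 10 passed in *Wfdc2*+/+ lung, where 105 tested genes did.

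The mean of both stage effects, added after the data were seen, draws on all 8 libraries. *Car4* rose, with a mean log2 change of 2.70 (6.49-fold, SE 0.61, limma adjusted p = 0.0482), and was higher in 4 of 4 P1.5 libraries. It was the 1 of 10 genes that passed, where 2.58% of tested genes passed as higher and 2.56% as lower. At an unadjusted p under 0.05, 4 of the 10 were higher and 2 lower, against 12.3% and 26.7% of tested genes. *Gpihbp1* was at 1.46 (SE 0.36, adjusted p = 0.0526), *Plvap* at 1.06 (SE 0.32, adjusted p = 0.0656), *Vwf* at 1.01 (SE 0.26, adjusted p = 0.0555), *Ednrb* at −0.91 (SE 0.34, adjusted p = 0.0947) and *Kdr* at −0.99 (SE 0.42, adjusted p = 0.125), all by limma. *Car4* and *Vwf* were higher in every P1.5 library than in every E18.5 library (7.28% of tested genes), and *Ednrb* was lower (13.7%). Without both libraries that stood apart, the mean log2 change was 2.098 for *Car4*, 1.09 for *Plvap*, 1.05 for *Vwf*, 0.88 for *Gpihbp1* and −0.38 for *Ednrb*. With any single library left out other than replicate 2 of *Wfdc2*GFP/GFP E18.5 or of *Wfdc2*+/+ P1.5, the adjusted p of *Car4* was between 0.0562 and 0.159 by limma. Its log2 change was 1.92 without replicate 1 of *Wfdc2*GFP/GFP E18.5, 3.48 without replicate 2 and between 2.52 and 2.87 without any other single library. At a log2 change of 2.70 to 2.72, the adjusted p was 0.0863 without the filter on low values, 0.0582 with an untrended prior and 0.0524 after quantile normalization.

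Whether loss of *Wfdc2* went with a difference in these genes after birth was asked by comparing *Wfdc2*GFP/GFP with *Wfdc2*+/+ lung at P1.5. No gene of the 10 passed the test. *Gpihbp1* was higher in both *Wfdc2*GFP/GFP libraries than in both controls, with a log2 difference of 0.94 (1.92-fold, SE 0.51, limma adjusted p = 0.551), and so was *Car4* (0.68, SE 0.86, adjusted p = 0.788), 2 of 10 genes against 12.6% of all tested genes. *Vwf* was lower in both (−0.30, SE 0.37, adjusted p = 0.788), 1 of 10 against 26.9%. The *Apln* difference was the largest in size, at 1.09 (SE 0.85, adjusted p = 0.690), with overlapping groups. *Plvap* (0.56), *Pecam1* (0.35), *Aplnr* (0.26), *Kdr* (0.03), *Cdh5* (0.00) and *Ednrb* (−0.06) also overlapped. No tested gene passed an adjusted p of 0.05 as higher in limma and 0.0128% passed as lower, and at an unadjusted p under 0.05 none of the 10 genes passed against 3.61% higher and 7.33% lower among all.

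The P1.5 differences turned on which control library was used. The median over the 10 genes was 0.30 log2 units, beside −0.20 over all tested genes. It was −0.38 without replicate 1 of *Wfdc2*+/+ P1.5, beside −0.44 over all, and 1.04 without replicate 2, beside 0.10. Without replicate 1, *Cdh5* was at −1.18, *Kdr* at −0.99, *Aplnr* at −0.65, *Apln* at −0.29 and *Pecam1* at −0.11, each with the sign turned. Without replicate 2 of *Wfdc2*GFP/GFP P1.5, *Cdh5* (−0.34) and *Kdr* (−0.18) were also below 0. *Gpihbp1* was at 1.63 without control replicate 1 and at 0.26 without control replicate 2, in place of 0.94. With a control library left out, the value rests on the other control library alone. Control replicate 1 was also the library with low mesenchyme and high epithelial sums, whose part in these values was not tested.

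**Figure D4:**
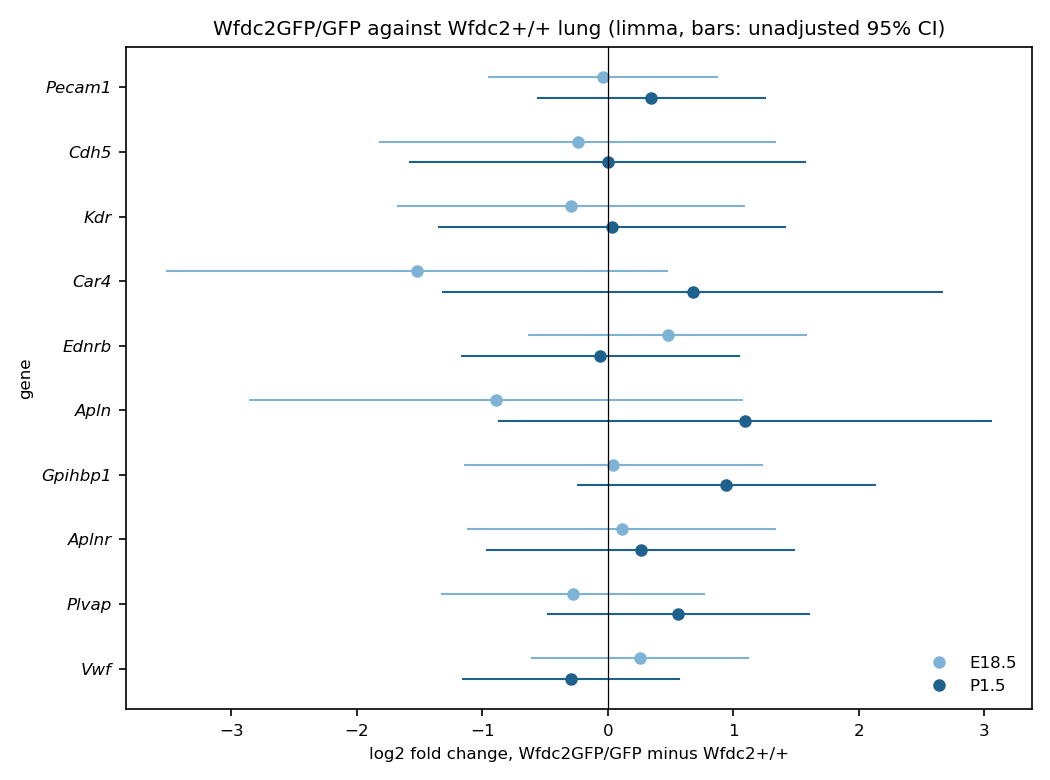
Fitted log2 difference of *Wfdc2*GFP/GFP against *Wfdc2*+/+ lung (horizontal axis) for each gene (vertical axis) at E18.5 and P1.5, with bars for the unadjusted 95% confidence interval. Every interval includes 0, and the widest are those of *Car4* and *Apln*.

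At E18.5 the same comparison also gave no gene that passed, with every adjusted p at 0.9998 by limma and an unadjusted p of 0.116 or more. *Car4* had the largest difference, −1.52 (SE 0.86), which was 0.03 without replicate 1 of *Wfdc2*GFP/GFP. *Apln* (−0.89, SE 0.85) and *Kdr* (−0.29, SE 0.60) were lower in both *Wfdc2*GFP/GFP libraries, 2 of 10 genes against 9.46% of all tested genes, and *Aplnr* was higher (0.11, SE 0.53), 1 of 10 against 26.5%. *Cdh5*, *Plvap*, *Pecam1*, *Gpihbp1*, *Vwf* and *Ednrb* lay between −0.28 and 0.48 with overlapping groups. Among all tested genes 0.0192% passed an adjusted p of 0.05 as lower in limma and none as higher, and 3.78% and 0.595% had an unadjusted p under 0.05 as higher and lower.

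The genotype differences of both stages were compared directly. The largest changes from E18.5 to P1.5 in the genotype difference were 2.19 for *Car4* (SE 1.21, adjusted p = 0.594) and 1.98 for *Apln* (SE 1.197, adjusted p = 0.633) by limma. The 95% confidence interval of the *Car4* value ran from −0.62 to 5.01 log2 units. With a library left out it ranged from 0.64, without replicate 1 of *Wfdc2*GFP/GFP E18.5, to 3.75, without replicate 2. That of *Apln* ranged from 0.60, without replicate 1 of *Wfdc2*+/+ P1.5, to 3.37, without replicate 2. No tested gene passed this test in limma, and at an unadjusted p under 0.05 none of the 10 did, against 2.18% higher and 8.06% lower among all.

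The ligands and receptors that act with these genes were followed in a list of 20 genes, of which 19 were tested. *Edn3*, which encodes endothelin 3, a ligand of the *Ednrb* receptor, fell in *Wfdc2*GFP/GFP lung by 3.18 on the log2 scale (SE 0.39, limma adjusted p = 0.0210). It was at 1.89 and 1.90 log2 RPKM in *Wfdc2*+/+ E18.5, 2.54 and 1.97 in *Wfdc2*GFP/GFP E18.5, −1.10 and −0.25 in *Wfdc2*+/+ P1.5 and −0.73 and −1.11 in *Wfdc2*GFP/GFP P1.5. All P1.5 libraries were thus below all E18.5 libraries for *Edn3* as for *Ednrb*, an order that 13.7% of all tested genes had. The endothelin genes *Edn1* and *Edn2* of the same list did not pass. In *Wfdc2*+/+ lung the change of *Edn3* was −2.57 (limma adjusted p = 0.0744). *Pgf*, encoding the VEGFR1 ligand placental growth factor, rose in *Wfdc2*GFP/GFP lung by 2.41 (SE 0.53, limma adjusted p = 0.0490). Only these 2 of the 19 passed, 1 in each direction, where 1.61% of all tested genes passed as higher and 2.94% as lower. The median change of the list was −0.73 in *Wfdc2*GFP/GFP lung, beside −0.46 over all tested genes, and −0.05 after centring. In *Wfdc2*+/+ lung and in both genotype comparisons 0 of 19 passed.

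*Vegfa*, encoding the ligand of the *Kdr* receptor, was at 4.18 and 4.32 log2 RPKM in *Wfdc2*+/+ E18.5, 4.83 and 5.21 in *Wfdc2*GFP/GFP E18.5, 3.29 and 5.12 in *Wfdc2*+/+ P1.5 and 3.53 and 4.02 in *Wfdc2*GFP/GFP P1.5. At E18.5 it was higher in both *Wfdc2*GFP/GFP libraries, with a difference of 0.77 (SE 0.55, limma adjusted p = 0.9998). *Lpl*, encoding the lipoprotein lipase that GPIHBP1 binds, was at 2.83 and 2.17 in *Wfdc2*+/+ P1.5 and at 1.48 and 1.62 in *Wfdc2*GFP/GFP P1.5, a difference of −0.95 (limma adjusted p = 0.367), while *Gpihbp1* had a difference of 0.94. Neither passed the test.

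Other endothelial genes were counted in fixed lists. Of 25 further pan-endothelial genes, 0 passed for genotype at either stage or for stage within either genotype by limma, and 1 passed for the mean stage effect. That gene was *Egfl7*, a secreted endothelial factor, which rose by 1.59 (SE 0.30, limma adjusted p = 0.0370). With a single library left out, its change was between 1.28 and 1.89, and it passed only without replicate 2 of *Wfdc2*GFP/GFP E18.5 or of *Wfdc2*+/+ P1.5. For genotype the median of the 25 was 0.02 at P1.5, beside −0.20 over all tested genes, and −0.09 at E18.5, beside 0.09. For stage it was −0.15 in *Wfdc2*+/+ lung, beside −0.15 over all tested genes, and −0.12 in *Wfdc2*GFP/GFP lung, beside −0.46. With each library centred on its median, these list medians were 0.22, −0.30, 0.12 and 0.56, and 19 of the 25 were above 0 in the last. The largest change in *Wfdc2*GFP/GFP lung was that of the tight junction gene *Cldn5*, at 2.77 (adjusted p = 0.0542 by limma), and *Egfl7* was there at 1.76 (adjusted p = 0.0541). Of 10 other aerocyte genes and 10 other general capillary genes, 0 passed in any of these comparisons by limma, the mean stage effect included. For stage in *Wfdc2*GFP/GFP lung the median of the aerocyte list was 0.51, with 6 of 10 above 0. That of the general capillary list was −0.61, with 2 of 10 above 0, beside −0.46 over all tested genes. After centring they were 1.19 and 0.06. In *Wfdc2*+/+ lung, uncentred, they were 0.17 and −0.19, beside −0.15. *Tek* and *Ptprb* of the general capillary list are also among the 25 pan-endothelial genes. At P1.5 the aerocyte gene *Fibin* had a genotype difference of −1.12 (SE 0.27, limma adjusted p = 0.285), from 5.39 and 5.56 log2 RPKM in *Wfdc2*+/+ to 4.27 and 4.43 in *Wfdc2*GFP/GFP lung. The general capillary gene *Bmp6* had a genotype difference of −2.12 (SE 0.68, limma adjusted p = 0.344). No arterial (9 tested), venous (6) or lymphatic gene (4) passed in these comparisons.

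Among 5 tested genes of endothelial activation, *Lrg1*, a glycoprotein induced by inflammatory signals, rose after birth in *Wfdc2*GFP/GFP lung by 6.06 (SE 1.02, limma adjusted p = 0.0359), and *Icam1*, a leukocyte adhesion molecule, by 1.55 (SE 0.34, limma adjusted p = 0.0490). *Lrg1* was at 0.25 and 0.76 log2 RPKM in *Wfdc2*+/+ E18.5, −2.70 and 0.36 in *Wfdc2*GFP/GFP E18.5, 2.90 and 0.60 in *Wfdc2*+/+ P1.5 and 4.63 and 5.14 in *Wfdc2*GFP/GFP P1.5. Between genotypes at P1.5 their differences were 3.14 (adjusted p = 0.347) and 0.80 (adjusted p = 0.452) by limma. Both genes are also expressed outside endothelium. In the same stage comparison of *Wfdc2*GFP/GFP lung, 3 of 8 platelet and megakaryocyte genes (*Gp9*, *Pf4* and *Itga2b*) passed as higher by limma. So did 2 of 9 epithelial genes, and 1 of 8 mesenchyme and pericyte genes passed as higher and 2 as lower. Among all tested genes 1.61% passed as higher and 2.94% as lower. Whether they passed or not, 8 of 8 platelet and megakaryocyte, 5 of 9 epithelial and 2 of 8 mesenchyme and pericyte genes were above 0. No leukocyte, erythroid, heart muscle or proliferation gene passed in that comparison. The leukocyte sum was 141 and 473 RPM in *Wfdc2*GFP/GFP E18.5 and 1204 and 1226 RPM in *Wfdc2*GFP/GFP P1.5, and all 6 tested leukocyte genes were above 0, with a median of 1.54. All 6 proliferation genes were below 0, with a median of −2.35, beside −0.46 over all tested genes. Of these 6, 5 had an unadjusted p under 0.05 by limma, as did 26% of all tested genes as lower. The part of these cells in the *Lrg1* and *Icam1* values was not tested. Without replicate 1 of *Wfdc2*GFP/GFP E18.5, *Lrg1* was at 4.53 (limma adjusted p = 0.190) and *Icam1* at 1.16 (0.236), and *Edn3*, *Pgf*, *Gp9*, *Pf4* and *Itga2b* did not pass either. With 1 *Wfdc2*GFP/GFP P1.5 library left out, whichever it was, none of these genes passed, and with 1 *Wfdc2*+/+ E18.5 library left out *Edn3* alone did (adjusted p of 0.0428 and 0.0433 by limma).

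The genes with the profile most like the mean of the 10 over the 8 libraries, after centring, were *Gna12* (root mean square difference 0.09 log2 units), *Mtap7d1* (0.10), *Dnajb11* (0.10), *2410016O06Rik* (0.11) and *Gpr56* (0.11). *Pecam1* was the member nearest to that mean (0.28) and *Car4* the farthest (1.48). All profiles share the same libraries and their totals.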

How the data were processed

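Whole-lung RNA from 8 mouse samples, 2 per group of genotype and stage, was sequenced from NEBNext Ultra Directional libraries. Per the labels and the study's methods, the authors trimmed reads (Trim Galore 0.4.0), aligned them to mm10 (TopHat2 2.1.1) and deposited log2 RPKM made in SeqMonk. As tested on the deposited log2 values, lengths are whole gene spans, 0 reads are entered as 0.9, and 99.86% to 99.97% of values per library lie within 0.02 of whole reads. Use of strand in counting and the sequencer of each library are not given in the sources used here.

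Genes averaging 0.05 RPKM or more (15627) were fitted in limma 3.58.1 (R 4.3.3) without a pseudocount. The model held a mean for each group and a trended prior, leaving 4 residual degrees of freedom. Two-sided p-values were adjusted over all tested genes (Benjamini-Hochberg) and called under 0.05. They measure only the spread between these samples, which the labels do not describe further. With 2 libraries a group, an exact permutation test reaches p = 0.333 at best and was not used. Exon lengths came from GENCODE M21 exons within the deposited gene span. The fit was tested on simulated data.

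The 10 genes and 15 lists (141 of 143 list entries found) were chosen with earlier results of these data known. Some genes stand in more than 1 list, so the list results are not separate. Other genes named are those of a list that passed, or its largest in size, and the 5 nearest to the mean profile. *Vegfa*, *Lpl* and the promoters shown were picked after their values were seen. Replicate numbers are not stated to mark litter or day but coincided with sex by *Xist*, and the main model holds no term for either. Alternatives were median centring, quantile normalization, pseudocounts of 0.1 and 1 RPKM, a filter at 0.5 RPKM or none, a replicate block, an untrended prior, voom on whole reads with TMM factors, fits of only the 4 libraries compared and each library left out. The mean stage effect and leaving out both libraries that stood apart were added after seeing the data. Figures used matplotlib 3.10.9 in Python 3.11.15.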

Additional observations from a re-analysis of the deposited data

How the results depend on the processing

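With 2 libraries in each group, the spread rests on 4 residual degrees of freedom, and calls turned on single libraries. When a library was left out, its lone replicate was assumed to vary like the other groups. Signs near 0 followed the scaling, since centring moved the median of all tested genes from −0.20 to 0.00 for genotype at P1.5, from 0.09 to −0.12 for genotype at E18.5, from −0.15 to 0.12 for stage in *Wfdc2*+/+ and from −0.46 to 0.21 for stage in *Wfdc2*GFP/GFP lung. The cause of the other changes was not tested.

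Counts of genes past an adjusted p of 0.05 in limma changed as follows. For genotype at P1.5 (2 genes), the count was 0 after centring, quantile normalization, voom and with only the 4 libraries compared, 5 with a pseudocount of 1 RPKM and with an untrended prior, 11 with a pseudocount of 0.1 RPKM and 21 without a filter, and from 0 to 24 with a library left out. For genotype at E18.5 (3 genes), it was 0 after centring, quantile normalization and voom, 1 with a filter at 0.5 RPKM and with only the 4 libraries compared, 6 with a pseudocount of 0.1 RPKM, 8 with an untrended prior and 22 without a filter, and from 0 to 1 with a library left out. For stage in *Wfdc2*+/+ lung (9 genes), it was 0 with voom and with only the 4 libraries compared, 5 after centring, 16 and 17 with pseudocounts of 0.1 and 1 RPKM, 35 without a filter, 49 after quantile normalization and 52 with a filter at 0.5 RPKM, and from 0 to 2166 with a library left out. For stage in *Wfdc2*GFP/GFP lung (711 genes), it was 237 with a pseudocount of 1 RPKM, 349 without a filter, 1279 after centring, 1689 with voom and 3036 with only the 4 libraries compared, and from 0 to 4874 with a library left out. For the mean stage effect (803 genes), it was 428 without a filter, 461 with a pseudocount of 1 RPKM, 527 with an untrended prior, 1278 after quantile normalization, 1684 with a filter at 0.5 RPKM, 1842 after centring and 2001 with voom, and from 28 to 7125 with a library left out. For the difference between the genotype effects (0 genes, with 1599 at an unadjusted p under 0.05), it was from 0 to 2 with a library left out. Where a count was 0 with no library left out of the comparison, 1047 to 2097 genes for genotype at P1.5, 676 to 833 for genotype at E18.5 and 1718 to 2225 for stage in *Wfdc2*+/+ lung had an unadjusted p under 0.05. Without both libraries that stood apart, the counts were 2667 and 0 for genotype at P1.5 and E18.5, 88 and 2778 for stage in *Wfdc2*+/+ and *Wfdc2*GFP/GFP lung, and 1474 for the mean.

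Of the 10 endothelial genes, the number that passed for stage in *Wfdc2*GFP/GFP lung (0) was 1 with a pseudocount of 0.1 RPKM, 2 with a filter at 0.5 RPKM and 3 after centring, with voom, with only the 4 libraries compared and without both libraries that stood apart, and from 0 to 4 with a library left out. For the mean stage effect (1) it was 0 without a filter and with an untrended prior, 3 with a filter at 0.5 RPKM and 4 after centring and with voom. After centring and with voom, more of all tested genes passed in both of these comparisons as well, as counted above. With a library left out, the numbers for the mean and for stage in *Wfdc2*+/+ lung were largest without replicate 2 of *Wfdc2*+/+ P1.5. The counts of all tested genes in these comparisons were largest without that library too.

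The replicate numbers are not stated to mark litter or day, and coincided with sex. Deviations of same-numbered libraries correlated across genes between genotypes at E18.5 (r = 0.23) and at P1.5 (r = 0.21), and between −0.29 and 0.08 for the other pairs of groups. With a replicate block, the counts of genes were 9 and 1 for genotype at P1.5 and E18.5, 105 and 4160 for stage in *Wfdc2*+/+ and *Wfdc2*GFP/GFP lung and 4990 for the mean, with 4 of the 10 genes (*Car4*, *Gpihbp1*, *Plvap* and *Ednrb*) for stage in *Wfdc2*GFP/GFP lung and 7 for the mean.

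These log2 changes of the 10 genes turned in sign. For genotype at P1.5, *Cdh5* was at −0.12 after quantile normalization and −0.0089 and −0.0621 with pseudocounts of 0.1 and 1 RPKM, *Kdr* at −9e-04 after quantile normalization and −0.0457 with a pseudocount of 1 RPKM, and *Ednrb* at 0.14 after centring and 0.0812 with voom. For genotype at E18.5, *Gpihbp1* was at −0.17 and −0.12 and *Aplnr* at −0.10 and −0.0446 after centring and with voom. For stage in *Wfdc2*GFP/GFP lung, *Pecam1* was at 0.60 and 0.39 and *Aplnr* at 0.26 and 0.0753 after centring and with voom, and *Pecam1* at 0.0109 after quantile normalization. For the mean stage effect, *Pecam1* was at 0.20 and 0.0563 and *Apln* at 0.11 and 0.0452 after centring and with voom. The difference between the genotype effects was −0.19 for *Aplnr* after quantile normalization.

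With a single library or both that stood apart left out, the genotype difference at P1.5 ranged from −0.11 to 0.80 for *Pecam1*, −1.18 to 1.18 for *Cdh5*, −0.99 to 1.06 for *Kdr*, −0.47 to 0.36 for *Ednrb*, −0.29 to 2.47 for *Apln* and −0.65 to 1.17 for *Aplnr*. At E18.5 it ranged from −0.19 to 0.11 for *Pecam1*, −3.07 to 0.0338 for *Car4*, −0.17 to 1.12 for *Ednrb*, −0.44 to 0.52 for *Gpihbp1* and −0.76 to 0.20 for *Plvap*. The stage effect ranged from −2.73 to 0.0323 for *Apln* and −1.47 to 0.34 for *Aplnr* in *Wfdc2*+/+ lung, from −0.40 to 0.24 for *Pecam1* in *Wfdc2*GFP/GFP lung and, as the mean, from −1.05 to 0.33 for *Apln*. The difference between the genotype effects ranged from −0.22 to 0.84 for *Pecam1*, −1.11 to 1.42 for *Cdh5*, −0.70 to 1.35 for *Kdr*, −1.18 to 0.11 for *Ednrb*, −0.78 to 1.06 for *Aplnr* and −0.18 to 1.38 for *Plvap*. Among the other values, 9 for the mean stage effect fell short of the threshold and 29 came to pass it, and 30 came to pass it for stage in *Wfdc2*GFP/GFP lung, 4 for stage in *Wfdc2*+/+ lung and 1 for genotype at P1.5.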
